A study of Drosophila melanogaster with 9 samples.

Results

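Gene expression in sorted larval cells was compared between animals that misexpressed the transcription factor Knot together with a membrane marker (labelled Kn ME) and animals that carried the marker alone (Control). The comparison took every array with either label, which came to 6 of the 9 arrays of the series, 3 biological replicates per group; the other arrays, of another genotype, entered the estimate of the spread and the mean over 9 arrays, which picks the probe set of a gene and tells bright from dim genes. Control larvae were labelled +/GAL4[21-7], UAS-mCD8:GFP, and Kn ME larvae carried the same driver and marker with UAS-knL:HA in addition. All larvae were reared at 25 °C and taken at the wandering stage of the third instar. For each sample 80 body walls were pooled, digested with protease and dissociated. Cells with the marker were collected on magnetic beads, so each array averages the collected cells of many animals. By its label the driver GAL4[21-7] marks every class of dendritic arborization (da) neuron.

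Da neurons are the sensory neurons that spread their dendrites under the larval epidermis. They are divided into classes by the complexity of their dendritic trees, and class IV neurons, which have the most branched trees, detect noxious stimuli. Knot, also called Collier, is the fly member of the COE/EBF family of transcription factors. In da neurons it is normally made in class IV, where it promotes the branched arbor, while the homeodomain protein Cut drives actin-rich dendritic spikes in class III. Outside the da neurons Knot is also known from an embryonic muscle and from the blood-forming lymph gland.

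Values are log2 signals as deposited, in which a difference of 1 is a doubling. The median over all probe sets and the 6 arrays was 1.58, and a group mean below 3 is called low signal here. The variant of RMA, the summary method used for these arrays, is not given, so the size of a difference at low signal is uncertain. A low-signal value may be background. A gene is represented by its brightest probe set. Errors are the standard error (SE) of the difference from limma, and p-values are limma's, adjusted by Benjamini-Hochberg over all 18769 probe sets with a threshold of 0.05. "Rose" and "fell" are used for genes past that threshold, always in the arrays labelled Kn ME relative to Control. Standard deviations (SD) are over the 3 arrays of a group.

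The array medians were 1.59, 1.67 and 1.61 in Control and 1.52, 1.496 and 1.53 in Kn ME. The correlation between replicates over probe sets ran from 0.93 to 0.944 for Control and from 0.974 to 0.977 for Kn ME, so Control was the more variable group. The brighter probe set of kn itself read 1.00, 3.75 and 3.53 in Control and 0.60, 0.53 and 0.68 in the arrays labelled Kn ME (adjusted p = 0.0897). It was thus no brighter in the misexpressing group, and both group means were low. No source used here tells whether its probes match the transgene, and the labels cannot be checked with it. Some neuronal and class IV markers were bright: elav, a pan-neuronal RNA-binding protein, averaged 6.27 ± 0.20 (SD, n = 3) in Control, and ppk26, a subunit of the class IV nociceptive channel, averaged 6.97 ± 0.72. Other neuronal markers, nSyb, fne, para and brp, averaged 6.83, 4.52, 3.71 and 2.86 in Control. Of the other class IV markers, ct averaged 4.28 and ppk was at low signal at 2.82, as was kn. Markers of blood cells, muscle and cuticle were also bright in Control, with Hml of plasmatocytes at 9.46, 8.83 and 7.70, Mf of muscle at 7.57, 8.91 and 8.37 and Cpr65Aw of cuticle at 6.68, 7.73 and 7.87. Signals of genes known from other cell types were thus present in the sorted material. The glial marker repo (2.02, 1.23 and 1.65) and the tracheal marker btl (1.24, 0.79 and 1.07) were at low signal in Control. Other markers of these cells differed: serp of trachea was bright at 8.45, 9.05 and 8.99, and moody of glia read 3.84, 2.38 and 4.41. The glial markers alrm and Gli averaged 2.21 and 1.88. Of the fat body markers, Fbp1, Lsp2 and apolpp averaged 4.87, 4.09 and 2.73.

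Of the 18769 probe sets, 626 rose (3.34%) and 366 fell (1.95%), and 848 of these 992 differed by 2-fold or more. Counted as named genes, 501 of 11982 rose (4.18%) and 278 fell (2.32%). The arrays of the groups did not overlap for 24% of all named genes. Rises were the brighter class: 352 of the 501 genes that rose, but 137 of the 278 that fell, had both group means at 3 or above. A further 132 rises and 91 falls were at low signal in 1 group, and 17 rises and 50 falls were at low signal in both. Genes at low signal in both groups, 6741 of 11982, are not described below as changed. Among the 4931 genes with a mean above 3 over the 9 arrays, 9.31% rose, 3.35% fell and the median log2 difference was 0.37, against 0.002 over all named genes. Only 3 of those 9 arrays were Control, so a gene high in Control alone could miss the limit. The limit kept 459 of the 501 rises but 165 of the 278 falls, so it favoured rises by itself. Values for groups of bright genes have to be read beside the median of 0.37 and with that lean in mind.

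Which calls were made depended on how the spread was estimated. With only the 6 arrays compared, 337 probe sets passed, 195 up and 142 down, and with weights for array quality 589 passed. Leaving out Kn ME replicate 1, 2 or 3 gave 409, 347 and 532 calls, and leaving out Control replicate 1 gave 1609. After a further quantile normalization of the arrays 830 probe sets passed, of which 48.1% rose, against 63.1% as deposited, and after centring each array on its median 72.4% of the calls were rises. Of the 177 named genes past the threshold that the text draws on, 79 passed with the 6 arrays alone and 65 passed in every alternative run. More than 1 probe set was present for 19 of the 177, and for 14 of these the mean of the probe sets passed. Genes past the threshold in every alternative run for them are called stable below.

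**Figure D1:**
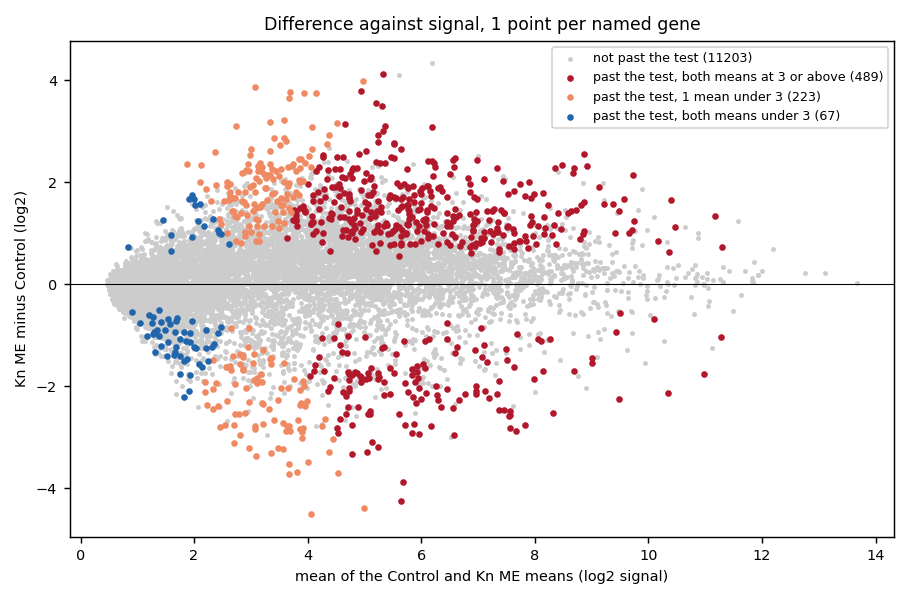
Log2 difference of Kn ME from Control (y axis) against the mean of both group means in log2 signal (x axis), 1 point for each of the 11982 named genes. Grey points are not past the limma threshold; of the coloured ones 489 have both group means at 3 or above, 223 have 1 below and 67 have both below.

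The functions below were taken from 58 gene lists, which held 173 of the 779 named genes past the threshold; the other 606 were in no list. Counts of members that rose or fell are given beside the number measured, and they include members at low signal in both groups. They have to be read beside the shares over all named genes, 4.18% rising and 2.32% falling. For named genes with a mean above 3 these shares were 9.31% and 3.35%. The shares ranged from lists in which every call was a rise (plasmatocyte markers, 13 of 25) to lists in which every call was a fall (cuticle proteins, 11 of 81).

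**Figure D2:**
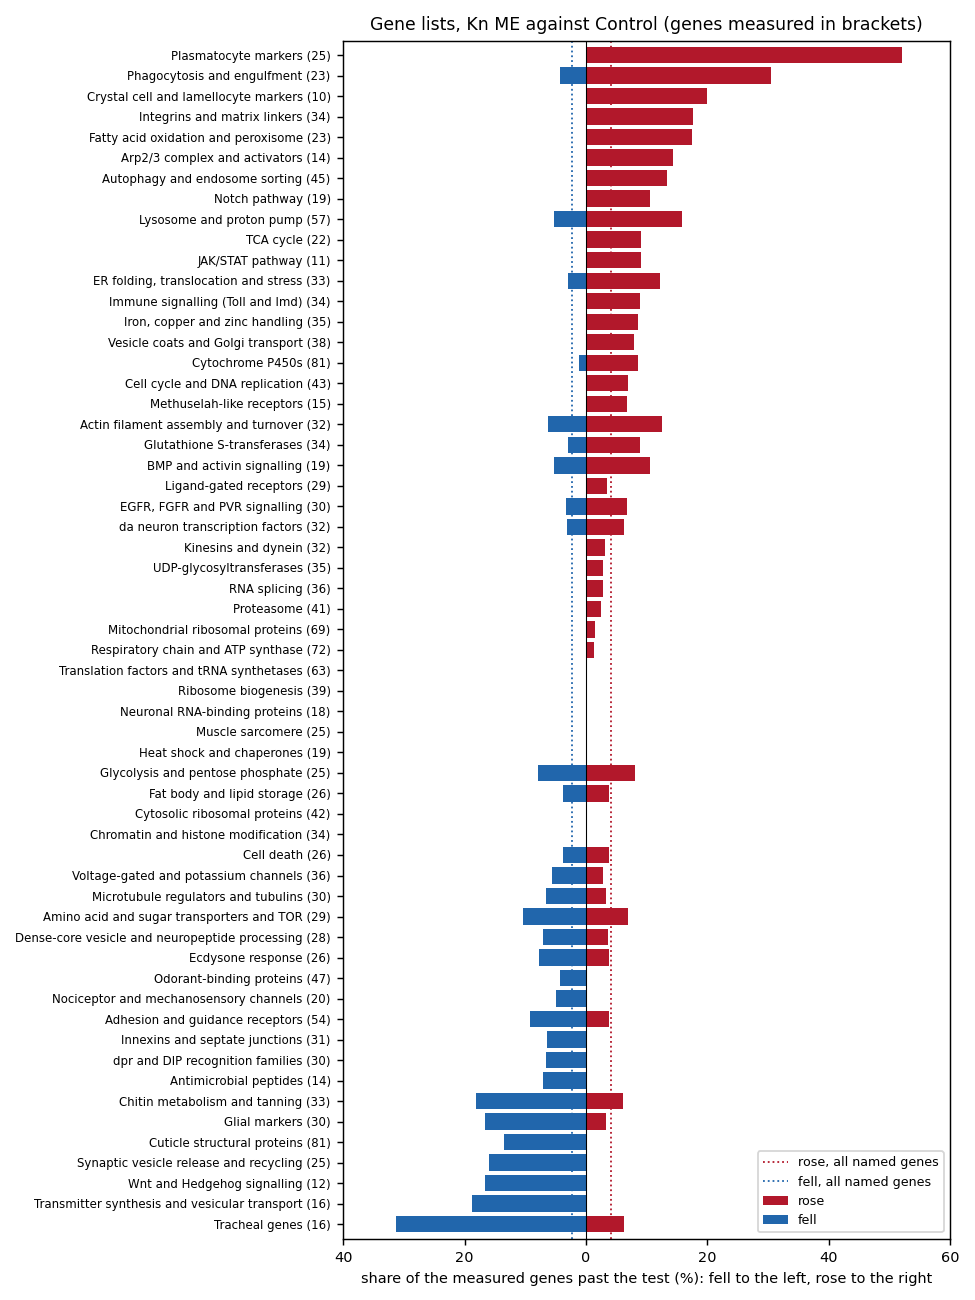
Percent of the measured members of each gene list that rose (right) or fell (left) in Kn ME relative to Control, by the limma threshold, with the number measured in brackets. The dotted lines mark the shares among all named genes, 4.18% rising and 2.32% falling.

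Of 25 genes of synaptic vesicle release and recycling, 4 fell and 0 rose. These are the proteins that sensory neurons use to signal to the central nervous system. nSyb, the neuronal synaptobrevin that drives vesicle fusion, read 6.78, 6.73 and 6.97 in Control and 5.08, 4.74 and 4.35 in Kn ME. The groups were far apart, and nSyb fell by 2.10 ± 0.20 (SE), a 4.3-fold drop (adjusted p = 0.00218). Frq1, a calcium sensor of the frequenin family, read 6.87, 5.45 and 6.71 against 4.14, 3.95 and 3.47 and fell by 2.49 ± 0.39 (adjusted p = 0.0121). Both falls were stable. cpx, encoding the fusion clamp complexin, was the brightest of them, at 8.90, 9.34 and 8.77 against 7.02, 7.66 and 7.22. It fell by 1.71 ± 0.28 (adjusted p = 0.0151), a call that was lost with array weights (adjusted p = 0.0519). The other probe set of cpx did not pass (-1.10, adjusted p = 0.361). The fourth, the SNARE gene Snap25, ended at low signal in Kn ME (3.40, 2.83 and 4.01 against 0.55, 0.69 and 1.91) and was lost with the 6 arrays alone (adjusted p = 0.0675). Among the 15 members with a mean above 3 the median difference was -0.11, below the 0.37 of all bright genes, and 7 of the 15 differences were positive. That limit left out Snap25, whose mean over the 9 arrays was 1.74. Over all 25 members, 8 of them at low signal in both groups, the median was -0.65, beside 0.002 over all named genes. In either direction, 12 of the 25 had an unadjusted limma p under 0.05, beside 2781 of all 11982 named genes. The count of falls ranged from 2 to 6 when 1 array was left out.

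Among genes that make or load transmitters, 3 of 16 fell. VAChT, the vesicular acetylcholine transporter, read 3.85, 3.43 and 4.89 in Control and 1.25, 1.34 and 1.96 in Kn ME, and ChT, which takes up choline for acetylcholine synthesis, read 3.70, 5.57 and 4.12 against 0.74, 2.20 and 2.13. Their falls of 2.54 ± 0.39 (adjusted p = 0.0111) and 2.78 ± 0.60 (adjusted p = 0.0364) both ended at low signal, and that of ChT was lost with the 6 arrays alone (adjusted p = 0.0878). The third was Ddc, dopa decarboxylase, which makes dopamine and serotonin in neurons and also serves tanning of the cuticle in the epidermis. It was bright on every array (8.39, 8.68 and 9.31 against 5.61, 6.38 and 6.96) and fell by 2.48 ± 0.37 (adjusted p = 0.0101).

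Neuropeptide processing split in the same data. 7B2, the helper protein of a prohormone convertase, read 4.87, 4.68 and 5.46 in Control and 1.91, 1.12 and 2.06 in Kn ME, where it was at low signal. Pal2, an enzyme that finishes peptide amidation, read 4.81, 4.56 and 4.46 against 1.64, 2.76 and 2.64. The falls were 3.31 ± 0.31 (adjusted p = 0.00213) and 2.26 ± 0.31 (adjusted p = 0.0069). Nplp2, a peptide precursor, went the other way, from 8.51, 7.71 and 7.07 to 10.24, 9.95 and 10.06, a rise of 2.32 ± 0.33 (adjusted p = 0.00843). All 3 were stable, and they were the only calls among 28 dense-core vesicle genes, of which 16 were at low signal in both groups.

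Ion channels could be followed only in part, because 26 of 36 voltage-gated and potassium channel genes and 18 of 20 nociceptor and mechanosensory channel genes were at low signal in both groups. In the former 1 rose and 2 fell, and in the latter 0 rose and 1 fell. Ih, which encodes the channel of the hyperpolarization-activated current, read 5.42, 6.60 and 6.05 in Control and 3.53, 2.35 and 2.31 in Kn ME. SK, a calcium-activated potassium channel, read 3.88, 2.96 and 3.80 against 0.98, 1.33 and 1.01. Both fell, by 3.29 ± 0.39 (adjusted p = 0.00452) and 2.44 ± 0.24 (adjusted p = 0.00244), to low signal. The other probe sets of SK, at low signal in both groups, did not pass (-0.21, -1.925 and 0.04, adjusted p = 0.613, 0.135 and 0.92). Averaged over all 4 probe sets of SK the difference was -1.13 (adjusted p = 0.037). stj, the α2δ subunit that helps place calcium channels at synapses, rose from 3.36, 3.17 and 3.28 to 5.22, 5.82 and 6.25, by 2.50 ± 0.35 (adjusted p = 0.00807). These 3 calls were stable. The only call in 29 ligand-gated receptor genes was a nicotinic acetylcholine receptor subunit, nAChRbeta3, which rose by 1.62 ± 0.34 (adjusted p = 0.0328), from 5.92, 4.91 and 4.34 to 6.75, 6.74 and 6.55, but not with the 6 arrays alone (adjusted p = 0.114).

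The class IV channel genes were not higher in Kn ME. ppk26 read 6.14, 7.39 and 7.37 in Control and 5.67, 4.05 and 5.09 in Kn ME and fell by 2.03 ± 0.45 (adjusted p = 0.0393), a call that was lost with the 6 arrays alone (adjusted p = 0.127). Its partner subunit ppk read 1.99, 1.64 and 4.84 against 0.98, 0.92 and 1.03. Only Control replicate 3 was above the low-signal limit, and the difference did not pass (adjusted p = 0.193). The neuronal marker elav read 6.46, 6.06 and 6.29 against 5.55, 5.69 and 5.01. Its arrays did not overlap, and the difference of -0.85 ± 0.20 missed the threshold (adjusted p = 0.0502). For the neuronal markers brp, para and fne the groups overlapped. Their differences of -0.765, -0.74 and -0.92 did not pass (adjusted p = 0.195, 0.463 and 0.399). None of the 18 neuronal RNA-binding protein genes passed limma's threshold, although 16 had a mean above 3. Of the 18, 9 had an unadjusted p under 0.05, beside 2781 of all 11982 named genes. The median of the list lay near 0 at 0.02 and turned to -0.16 after quantile normalization. In such mixed material, fewer cells of a type and less RNA per cell cannot be told apart. The plasmatocyte, cuticle and tracheal marker levels described below also differed between the groups, and their part in the falls of neuronal genes was not tested.

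Among 32 transcription factor genes with a role in da neurons, 2 rose, 1 fell and 23 were at low signal in both groups. ct, which encodes Cut, read 4.39, 4.46 and 3.995 in Control and 5.50, 5.59 and 5.07 in Kn ME, a rise of 1.10 ± 0.19 (adjusted p = 0.0162). The call was lost with the 6 arrays alone (adjusted p = 0.0704), and averaged over the 3 probe sets of the gene the difference was 0.27 (adjusted p = 0.56). The probe sets of ct disagree: 1 of the others was at low signal in both groups, with means of 2.84 in Control and 1.25 in Kn ME, a difference of -1.59 ± 0.29 (adjusted p = 0.021). vvl, a POU-domain factor, was bright and fell by 2.21 ± 0.40 (adjusted p = 0.0199), from 6.73, 6.83 and 7.30 to 4.19, 5.06 and 4.99. The call was lost with array weights (adjusted p = 0.0788) and without Kn ME replicate 1 or 2. The other probe set of vvl, at low signal in both groups, did not pass (-0.75, adjusted p = 0.272), and the mean of both did (-1.48, adjusted p = 0.027). The bHLH partner protein gene da rose by 0.81 ± 0.18 (adjusted p = 0.037), from 4.68, 4.84 and 5.09 to 5.88, 5.64 and 5.54, and not with the 6 arrays alone (adjusted p = 0.0948).

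Receptors that a growing dendrite or axon uses to read its surroundings moved in both directions, with 2 of 54 adhesion and guidance genes rising and 5 falling. These are 3.70% and 9.26%, beside 4.18% and 2.32% over all named genes. Leaving out 1 array gave 1 (without Kn ME replicate 1 or 3) to 5 (without Control replicate 3) rises and 3 (without Kn ME replicate 1 or 2) to 8 (without Control replicate 2) falls. klg, which encodes the immunoglobulin-domain adhesion protein Klingon, was nearly uniform within groups, at 4.22, 4.24 and 4.31 in Control and 1.16, 1.37 and 0.94 in Kn ME. It fell by 3.10 ± 0.15 (adjusted p = 0.000134) to low signal. unc-5, the netrin receptor that mediates repulsion, fell by 2.41 ± 0.29 (adjusted p = 0.00458), from 6.07, 6.38 and 5.29 to 3.47, 3.48 and 3.56. Its other probe set, at low signal in both groups, did not pass (-0.54, adjusted p = 0.0918). Ten-m, a teneurin that controls the direction of dendrite growth, rose by 1.33 ± 0.17 (adjusted p = 0.00514), from 7.60, 7.09 and 7.12 to 8.49, 8.63 and 8.69. These 3 calls were stable. The receptor phosphatase gene Ptp10D also fell, by 1.58 ± 0.25 (adjusted p = 0.0118), and so did the adhesion gene Fas1, by 1.72 ± 0.34 (adjusted p = 0.0254), while Ephrin, the ligand of the Eph receptor, rose by 1.46 ± 0.27 (adjusted p = 0.0199). Fas1 and Ephrin were lost with the 6 arrays alone. The other probe set of Ptp10D differed by -0.28 (adjusted p = 0.668), and averaged over both the difference was -0.93 (adjusted p = 0.0868). The bright members of the list had a median of -0.43, below the 0.37 of all bright genes. The dpr and DIP recognition families, a further 30 genes, were at low signal in both groups for 27, and only dpr12 was called above that level, at 3.23, 3.68 and 3.75 in Control against 2.61, 1.93 and 2.46 (adjusted p = 0.0266). That call was lost with the 6 arrays alone (adjusted p = 0.0749). The other probe sets of dpr12 did not pass (-0.20 and -0.48, adjusted p = 0.692 and 0.283).

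In the cytoskeleton, genes of actin branching leaned upward and a pair of neuronal microtubule proteins fell. Of the 13 bright members of the Arp2/3 list, whose complex nucleates branched actin, 12 had a positive difference, with a median of 0.86 beside 0.37 over all bright genes, but only 2 of 14 passed. Bright members of some other lists leaned upward by sign as well, with 30 of 32 positive for splicing and 34 of 38 for autophagy. The synaptic vesicle list, with 7 of 15, did not. Arpc3B read 5.96, 4.81 and 4.94 in Control and 6.70, 7.20 and 7.32 in Kn ME, and Arpc1 read 3.63, 4.25 and 4.58 against 5.58, 5.11 and 5.44. They rose by 1.84 ± 0.31 (adjusted p = 0.0151) and 1.22 ± 0.29 (adjusted p = 0.0463), and neither passed with the 6 arrays alone. The number of rises ran from 0 to 4 when 1 array was left out.

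Of 32 further actin genes, 4 rose and 2 fell. Ced-12, an ELMO-family activator of Rac, read 5.15, 5.05 and 5.01 in Control and 6.64, 6.26 and 6.61 in Kn ME and rose by 1.43 ± 0.15 (adjusted p = 0.00266). Cib2, which encodes a calcium- and integrin-binding protein, fell from 5.25, 3.99 and 5.09 to 1.36, 1.27 and 1.62, by 3.36 ± 0.30 (adjusted p = 0.00212), into low signal. Both were stable. The severing protein gene Gel (9.52, 9.11 and 8.74 against 10.46, 10.62 and 10.04) and the elongation factor genes ena and dia rose by 1.25 ± 0.24, 0.96 ± 0.22 and 1.48 ± 0.35 (adjusted p = 0.0223, 0.045 and 0.0497), whereas the formin gene form3 fell by 2.16 ± 0.50 (adjusted p = 0.0448). None of these 4 passed with the 6 arrays alone.

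Of 30 microtubule regulators and tubulins, 2 fell and 1 rose, and none passed with the 6 arrays alone. futsch, the fly MAP1B protein of axons and dendrites, read 5.05, 5.72 and 6.85 in Control and 2.37, 3.62 and 3.75 in Kn ME. tau, a microtubule-binding protein of axons, read 5.69, 6.06 and 6.75 against 3.91, 4.20 and 4.81. The groups did not overlap in either gene, and the falls were 2.63 ± 0.55 (adjusted p = 0.0319) and 1.86 ± 0.38 (adjusted p = 0.0302). The other probe sets of futsch, at low signal in both groups, did not pass (-0.45 and -0.49, adjusted p = 0.419 and 0.385). The mean of its probe sets did (-1.19, adjusted p = 0.0272). The tubulin gene betaTub97EF rose by 1.71 ± 0.40 (adjusted p = 0.0475), from 6.59, 6.54 and 5.06 to 8.07, 7.99 and 7.28. spas, which encodes the microtubule-severing protein Spastin and is known as a target of Knot in class IV neurons, read 5.65, 3.47 and 5.31 in Control and 5.57, 5.67 and 5.50 in Kn ME. The groups overlapped, since Control replicate 1 reached the Kn ME level while replicates 2 and 3 lay below it, and no difference passed (0.77 ± 0.48, adjusted p = 0.429). Of 32 kinesin and dynein genes only Klp98A, a kinesin of endosome transport, passed, with a rise of 1.38 ± 0.25 (adjusted p = 0.0196) that was lost with the 6 arrays alone (adjusted p = 0.074).

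**Figure D3:**
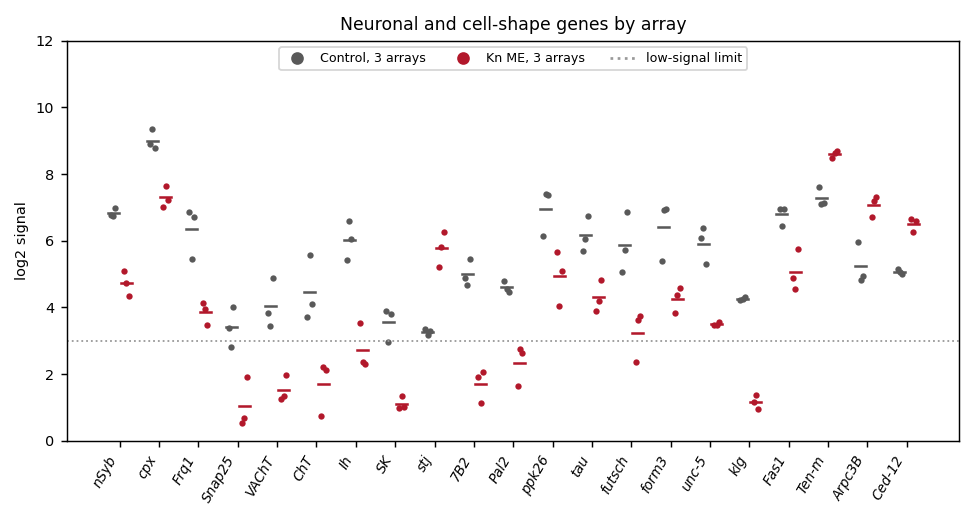
Log2 signal (y axis) of genes of synaptic output, channels, peptide processing, guidance and the cytoskeleton (x axis) on each of the 3 Control and 3 Kn ME arrays, with bars at the group means and a dotted line at the low-signal limit of 3. nSyb, Ih, klg and unc-5 are lower on every Kn ME array than on every Control array, and stj and Ten-m are higher.

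Blood-cell genes were the group with the largest share of rises. Of 25 plasmatocyte markers, 13 rose and 0 fell. Plasmatocytes are the phagocytic blood cells of the larva, some of which sit under the epidermis beside the sensory neurons. The mean log2 signal over the list was 6.27, 6.01 and 5.28 on the Control arrays and 7.41, 7.38 and 7.33 on the Kn ME arrays, and the linear signals summed to 7229, 5566 and 2903 and to 16515, 16228 and 14913. Control replicate 3 was the lowest and the Kn ME arrays were nearly alike. Hml, the hemolectin gene that defines the lineage, rose by 2.14 ± 0.38 (adjusted p = 0.0187), from 9.46, 8.83 and 7.70 to 10.85, 10.83 and 10.72. Of the 25 members, 5 or 6 were below 3 on each array, and the defining markers Hml, NimC1, eater, Sr-CI, Pxn and srp were above it on all of them. eater and Pxn, with differences of 1.46 and 1.65, did not pass (adjusted p = 0.0618 and 0.0851). With the 6 arrays alone 9 markers rose, and leaving out 1 array gave 8 (without Kn ME replicate 1, 2 or 3) to 18 (without Control replicate 1).

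NimB5, Sr-CIV, Sr-CI and srp were stable. NimB5, a secreted protein of the Nimrod family, read 4.12, 3.84 and 3.60 in Control and 6.76, 6.62 and 6.504 in Kn ME, 6.86-fold higher (adjusted p = 0.000518). Sr-CI, a class C scavenger receptor that binds bacteria, read 8.02, 7.49 and 7.27 against 9.78, 9.55 and 9.97 (adjusted p = 0.00266), and its relative Sr-CIV rose from low signal, 2.62, 1.58 and 1.95, to 6.17, 5.71 and 5.53 (adjusted p = 0.00213). srp, the GATA factor of the blood lineage, rose by 2.06 ± 0.27 (adjusted p = 0.00626), from 6.62, 6.13 and 5.46 to 8.12, 8.15 and 8.11. In the crystal cell and lamellocyte list 2 of 10 rose. lz, the Runx factor of crystal cells, the melanizing blood cells, rose from low signal, 2.27, 1.68 and 1.43, to 6.05, 5.52 and 5.15, by 3.78 ± 0.31 (adjusted p = 0.0013). The other was yellow-f, of melanin synthesis, which rose by 1.31 ± 0.26 (adjusted p = 0.0264) and was lost with the 6 arrays alone. The crystal cell enzymes PPO1 and PPO2 varied widely in Control and did not pass. PPO1 read 7.34, 1.53 and 3.22 in Control, where replicate 1 alone was high, and 8.77, 8.16 and 8.14 in Kn ME (adjusted p = 0.082). PPO2 had the same form, 7.14, 1.81 and 1.72 against 8.23, 7.33 and 7.39 (adjusted p = 0.108).

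Phagocytosis genes, some of which are also plasmatocyte markers, rose in 7 of 23 cases and fell in 1. pes, a CD36-family receptor, read 3.11, 3.10 and 3.93 in Control and 5.55, 5.94 and 6.13 in Kn ME, and the calcium channel gene Orai read 4.28, 4.33 and 4.01 against 5.93, 5.99 and 5.53. Both rises were stable (2.49 ± 0.26, adjusted p = 0.00287, and 1.61 ± 0.20, adjusted p = 0.00514). The other probe set of Orai differed by 2.04 and did not pass (adjusted p = 0.0586). emp, another CD36-family gene, fell by 1.78 ± 0.24 (adjusted p = 0.00707), from 5.22, 5.67 and 6.12 to 3.64, 3.84 and 4.18.

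Of 34 integrin and matrix genes 6 rose and 0 fell. Ppn, the matrix protein papilin, read 8.15, 7.55 and 7.10 in Control and 10.24, 10.07 and 10.13 in Kn ME. vkg, a chain of type IV collagen, read 8.82, 8.98 and 8.48 against 10.28, 10.26 and 10.05, and LanB2, the laminin γ chain, read 9.11, 8.78 and 8.85 against 9.85, 9.96 and 9.96. Leaving out 1 array gave 3 (without Kn ME replicate 2) to 9 (without Control replicate 1) rises in the list, with 3 falls without Control replicate 2 and 1 without Control replicate 1, and quantile normalization gave 4 rises and 2 falls. All 3 genes were stable and rose by 2.55 ± 0.25 (adjusted p = 0.00218), 1.44 ± 0.16 (adjusted p = 0.00346) and 1.01 ± 0.15 (adjusted p = 0.00991). SPARC, a collagen-binding protein, Tig, a matrix protein of muscle attachments, and mys, the β integrin, rose by 1.31, 1.79 and 0.79 (adjusted p = 0.0214, 0.042 and 0.0416), and all were lost with the 6 arrays alone. Blood cells are a known source of basement membrane proteins, and the plasmatocyte markers above moved with these genes; their part in the rises of the matrix, phagocytosis and lysosome lists was not tested.

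Immune signalling gave 3 rises and 0 falls in 34 Toll and Imd pathway genes, of which 23 had a mean above 3. The 8.82% that rose lay near the 9.31% of all named genes with such a mean, and over all named genes it was 4.18%. spz, the ligand of Toll, read 6.57, 6.07 and 5.98 in Control and 8.61, 8.45 and 8.36 in Kn ME and rose by 2.27 ± 0.18 (adjusted p = 0.00121). PGRP-LF, a membrane protein that restrains Imd signalling, rose by 2.45 ± 0.31 (adjusted p = 0.00527) from low signal, 1.93, 3.17 and 2.87, to 5.30, 4.995 and 5.04. Both were stable. The serpin gene Spn88Ea rose by 0.74 ± 0.17 (adjusted p = 0.0449), and not with the 6 arrays alone (adjusted p = 0.121). Of 14 antimicrobial peptide genes, 10 were at low signal in both groups, 0 rose and 1 fell, and the median difference was 0.09. The 7 with a mean above 3 over the 9 arrays had a median of 0.57, but some of these were below 3 in both groups compared. Drsl5, a drosomycin-like gene, fell from 6.24, 6.23 and 6.48 to 1.89, 1.75 and 1.80. That was a 22.6-fold drop to low signal (4.50 ± 0.15, adjusted p = 1.13e-05).

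Cuticle genes held the most falls of any list. Of 81 cuticle structural protein genes 11 fell and 0 rose, and 54 were at low signal in both groups. Lcp65Ag3, a larval cuticle protein, read 7.76, 7.997 and 8.28 in Control and 5.43, 6.02 and 6.34 in Kn ME, and Cpr65Aw read 6.68, 7.73 and 7.87 against 4.92, 4.37 and 4.21. They fell by 2.08 ± 0.33 (adjusted p = 0.0121) and 2.93 ± 0.41 (adjusted p = 0.00744) and were stable, as was Cpr78Cc, which fell by 3.21 ± 0.46 (adjusted p = 0.00878) to low signal. The 19 bright members had a median of -1.86. Cuticle genes of the Lcp65Ag group are near-identical copies, so their probe sets may share signal. With the 6 arrays alone 5 cuticle genes fell, and leaving out 1 array gave 3 (without Kn ME replicate 1 or 2) to 18 (without Control replicate 1).

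Of 33 chitin and tanning genes 6 fell and 2 rose, and leaving out 1 array gave 3 (without Kn ME replicate 2) to 10 (without Control replicate 1) falls and 0 (without Kn ME replicate 1, 2 or 3) to 4 (without Control replicate 1) rises. e, which encodes Ebony, the enzyme that joins β-alanine to dopamine in tanning, read 7.53, 6.32 and 6.66 in Control and 3.47, 4.08 and 3.40 in Kn ME, a fall of 3.19 ± 0.42 (adjusted p = 0.00624). serp, a chitin deacetylase, fell by 2.56 ± 0.42 (adjusted p = 0.014), from 8.45, 9.05 and 8.99 to 5.97, 6.56 and 6.29, and obst-A, a chitin-binding protein, fell by 2.66 ± 0.45 (adjusted p = 0.0158) to low signal. The 2 rises were of Idgf1 and Idgf6, secreted chitinase-like growth factors that blood cells also make. Idgf6 read 9.25, 8.56 and 7.97 in Control and 10.16, 10.30 and 10.003 in Kn ME (adjusted p = 0.0216), and Idgf1 read 7.59, 7.29 and 6.38 against 8.75, 8.83 and 8.78 (adjusted p = 0.0173); neither passed with the 6 arrays alone.

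Of 16 tracheal genes 5 fell and 1 rose (sty, described below), and the tracheal marker btl was at low signal on every array. The falls include serp and emp, and the apical matrix genes verm and dpy, which fell by 1.71 ± 0.39 and 1.73 ± 0.38 (adjusted p = 0.0427 and 0.0379), both lost with the 6 arrays alone. Of 30 glial markers 5 fell and 1 rose, with the glial determinant repo at low signal in both groups. Gs2, a glutamine synthetase, read 8.26, 8.55 and 9.004 in Control and 5.99, 5.86 and 6.60 in Kn ME, and the gap junction gene Inx2 read 9.32, 9.68 and 9.59 against 7.89, 7.51 and 8.10. They fell by 2.45 ± 0.36 (adjusted p = 0.00916) and 1.69 ± 0.24 (adjusted p = 0.00781), both stable. A further innexin gene, ogre, fell by 1.74 ± 0.32 (adjusted p = 0.0199), and axo, a neurexin-family protein, by 1.35 ± 0.16 (adjusted p = 0.00404), while loco, a regulator of G protein signalling, rose by 1.68 ± 0.36 (adjusted p = 0.0352). The other probe sets of axo did not pass (-0.93, 0.03 and -0.48, adjusted p = 0.0965, 0.961 and 0.461). Inx2 and ogre were the 2 calls in 31 innexin and septate junction genes, and ogre and loco were lost with the 6 arrays alone.

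None of the 25 sarcomere genes passed limma's threshold, and 7 had an unadjusted p under 0.05, beside 2781 of all 11982 named genes. The list mean was 4.57, 5.33 and 5.21 on the Control arrays and 4.42, 4.599 and 4.77 on the Kn ME arrays, so the groups overlapped. For cuticle the mean was 2.75, 3.17 and 3.11 against 2.22, 2.21 and 2.25, for trachea 4.23, 4.34 and 4.66 against 3.49, 3.58 and 3.94, with no overlap in either. For glia it was 4.46, 3.94 and 4.63 against 3.92, 4.04 and 4.19 and for the fat body list 3.36, 3.14 and 3.28 against 3.29, 3.46 and 3.27, and in both the groups overlapped. The part of these cell types in the falls of epidermal, tracheal and glial genes, and of Ddc, was not tested.

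**Figure D4:**
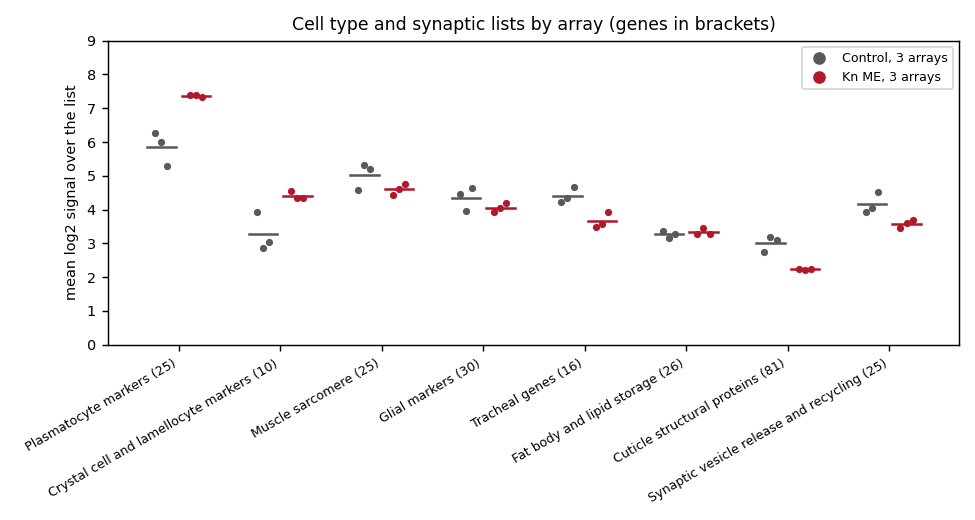
Mean log2 signal (y axis) over the members of 7 marker lists of other cell types and of the synaptic vesicle list (x axis) on each of the 3 Control and 3 Kn ME arrays, with bars at the group means. The plasmatocyte values lie between 5.28 and 6.27 in Control and between 7.33 and 7.41 in Kn ME, and the muscle values overlap.

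Some membrane traffic genes rose in each of the organelle lists, and few of these rises held in every alternative. The share that rose was 15.8% for lysosome, 13.3% for autophagy, 12.1% for endoplasmic reticulum and 7.89% for coat and Golgi genes. Over all named genes it was 4.18%, and over those with a mean above 3 it was 9.31%. Of the Golgi list 37 of 38 genes had such a mean, and its share lay below 9.31%. Of 57 lysosome and proton pump genes 9 rose and 3 fell. LManI and LManII are lysosomal α-mannosidases, which trim sugars from glycoproteins. LManI read 6.05, 6.21 and 5.08 in Control and 8.04, 7.76 and 7.79 in Kn ME, a stable rise of 2.08 ± 0.27 (adjusted p = 0.00624), and LManII read 7.56, 6.68 and 6.01 against 8.73, 8.88 and 8.54 (adjusted p = 0.0163). CtsB, the protease cathepsin B, was bright throughout and rose by 1.12 ± 0.21 (adjusted p = 0.0209), from 10.13, 10.16 and 9.45 to 11.11, 11.16 and 10.84. Npc1a, which exports cholesterol from lysosomes, rose by 0.85 ± 0.15 (adjusted p = 0.0199). Lerp, the sorting receptor of lysosomal enzymes, fell to low signal, from 3.13, 4.25 and 4.58 to 1.75, 2.19 and 2.42 (adjusted p = 0.0216). So did VhaAC45RP, related to a proton pump accessory subunit, from 3.27, 3.71 and 3.29 to 2.18, 1.32 and 1.90 (adjusted p = 0.00889). With the 6 arrays alone, 1 rise (LManI) and 1 fall (VhaAC45RP) were left, and leaving out 1 array gave 1 (without Kn ME replicate 2) to 13 (without Control replicate 1) rises.

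In autophagy and endosome sorting 6 of 45 rose and 0 fell. Atg16, part of the complex that conjugates Atg8 to membranes, rose from low signal, 1.13, 1.86 and 2.95, to 3.83, 4.71 and 4.52 (adjusted p = 0.0199), and dor, the Vps18 subunit of the tether that fuses vesicles with lysosomes, from 1.58, 1.61 and 2.20 to 3.44, 3.79 and 3.09 (adjusted p = 0.0199). The others were retromer subunits Vps26 and Vps29 and ESCRT subunits Vps25 and Vps2, which rose by 1.04, 1.41, 1.30 and 0.68 (adjusted p = 0.0278 to 0.0465), none of them with the 6 arrays alone. Leaving out 1 array gave 0 (without Kn ME replicate 2) to 6 (without Control replicate 1) rises.

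In the early secretory pathway, 4 of 33 endoplasmic reticulum genes and 3 of 38 coat and Golgi genes rose, while 1 and 0 fell. Leaving out 1 array gave 2 (without Control replicate 2 or Kn ME replicate 1, 2 or 3) to 9 (without Control replicate 1) rises in the former list and 1 (without Kn ME replicate 1 or 2) to 8 (without Control replicate 3) in the latter. Stt3B, the catalytic subunit that attaches N-glycans, read 7.12, 6.74 and 7.04 in Control and 7.93, 8.24 and 8.15 in Kn ME, and Gos28, a SNARE of the Golgi, read 4.14, 4.64 and 4.55 against 5.85, 5.75 and 5.61. Both rises were stable, 1.14 ± 0.16 (adjusted p = 0.00742) and 1.30 ± 0.17 (adjusted p = 0.00624). Sec63 and Spase12, of protein translocation and signal cleavage, Der-2, of the degradation of misfolded proteins, eca, a p24 cargo protein, and GM130, a Golgi matrix protein, rose by 0.69 to 1.07 (adjusted p = 0.0111 to 0.0395) and were lost with the 6 arrays alone. crc, the fly ATF4 of the stress response, fell by 0.67 ± 0.16 (adjusted p = 0.0483), from 10.16, 10.59 and 10.55 to 9.76, 9.82 and 9.71. The bright members of the Golgi list had a median of 0.61 and those of the endoplasmic reticulum list 0.49, beside 0.37 over all bright genes.

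In the fat body and lipid storage list 1 of 26 genes rose and 1 fell. bmm, the Brummer lipase that mobilizes stored fat, read 3.13, 2.84 and 3.10 in Control and 5.85, 5.25 and 5.45 in Kn ME, a stable 5.65-fold rise (adjusted p = 0.0043). FASN1, fatty acid synthase, fell by 1.55 ± 0.28 (adjusted p = 0.0201), from 7.07, 6.76 and 6.60 to 5.80, 5.24 and 4.72, and was lost with the 6 arrays alone (adjusted p = 0.0673). Among 23 genes of fatty acid oxidation and the peroxisome 4 rose and 0 fell. Pex2, a peroxin of the import machinery, rose from low signal, 2.75, 2.77 and 2.01, to 5.13, 4.77 and 4.53 (adjusted p = 0.00266), and ScpX, a peroxisomal thiolase, from 5.80, 5.40 and 5.30 to 6.56, 6.81 and 6.61 (adjusted p = 0.0121). Pex13, another import peroxin, and whd, the carnitine palmitoyltransferase that admits fatty acids to mitochondria, rose by 0.85 ± 0.15 and 1.33 ± 0.31 (adjusted p = 0.0163 and 0.0465), but not with the 6 arrays alone.

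In sugar metabolism 2 of 25 genes rose and 2 fell. fbp, fructose-1,6-bisphosphatase of gluconeogenesis, read 4.10, 4.66 and 4.50 in Control and 6.25, 6.31 and 5.59 in Kn ME and rose by 1.63 ± 0.26 (adjusted p = 0.0121). Pepck1, phosphoenolpyruvate carboxykinase of the same route, went the other way, from 8.18, 9.66 and 9.07 to 7.02, 5.89 and 5.57, by -2.81 ± 0.49 (adjusted p = 0.0174). UGP, which makes UDP-glucose, rose by 2.25 ± 0.36 from low signal and the hexokinase gene Hex-A fell by 1.37 ± 0.27 (adjusted p = 0.0134 and 0.0267). Only fbp passed with the 6 arrays alone. The NADP-linked enzymes Idh and Men rose by 0.79 ± 0.16 and 1.15 ± 0.25 (adjusted p = 0.0309 and 0.0377), the 2 calls among 22 genes of the citrate cycle, and neither passed with the 6 arrays alone.

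kar, a member of the monocarboxylate transporter family, read 4.53, 3.71 and 2.47 in Control, where replicate 3 was at low signal, and 6.92, 6.99 and 7.25 in Kn ME. Its stable rise was 3.49 ± 0.44 (adjusted p = 0.0053). slif, the amino acid transporter Slimfast, fell to low signal, from 2.93, 3.86 and 4.97 to 0.92, 1.36 and 1.21 (adjusted p = 0.012), and the phosphate cotransporter gene Picot fell from 4.08, 5.10 and 5.99 to 2.57, 1.09 and 2.86 (adjusted p = 0.0283). gb, a cystine/glutamate exchanger subunit, rose by 0.99 ± 0.17 (adjusted p = 0.0183), and the zinc transporter gene Catsup by 1.07 ± 0.17 (adjusted p = 0.0137). Of these 5, kar and Catsup passed with the 6 arrays alone. The amino acid and sugar transporter list held 2 rises and 3 falls in 29 genes, and the metal handling list 3 rises in 35.

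Detoxification enzymes were mostly dim, 65 of 81 cytochrome P450 genes being at low signal in both groups, but 7 rose and 1 fell. Cyp6a23 read 2.29, 2.30 and 2.26 in Control and 6.37, 5.72 and 5.98 in Kn ME, 13.4-fold higher from low signal (adjusted p = 0.000222). Cyp6d4 rose by 2.07 ± 0.22 (adjusted p = 0.00293), from 3.76, 4.50 and 3.95 to 5.998, 6.45 and 5.96, and Cyp6a13 by 2.09 ± 0.25 (adjusted p = 0.00468) from low signal. Cyp9c1 fell by 1.74 ± 0.23 (adjusted p = 0.00624), from 6.04, 6.16 and 6.10 to 4.67, 4.22 and 4.20. These 4 were stable. Cyp6a17 and Cyp4ac1, with rises of 1.76 ± 0.28 and 3.79 ± 0.78 (adjusted p = 0.0133 and 0.0309), were not. Several P450 genes of the Cyp6a group are close copies of each other, so their probe sets may share signal.

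Glutathione S-transferases, which conjugate reactive compounds to glutathione, gave 3 rises and 1 fall in 34 genes, of which 20 had a mean above 3. The 8.82% that rose lay near the 9.31% of all named genes with such a mean, and over all named genes it was 4.18%. GstD9 read 4.88, 3.91 and 3.64 in Control and 6.78, 6.89 and 7.06 in Kn ME, a stable 6.81-fold rise (adjusted p = 0.0038). GstE2 and GstT2 rose by 1.56 ± 0.30 and 1.91 ± 0.41 (adjusted p = 0.0242 and 0.0343) and GstZ2 fell by 1.93 ± 0.39 (adjusted p = 0.0281), none of them with the 6 arrays alone. Ugt35A1, the 1 call in 35 UDP-glycosyltransferase genes, rose from low signal, 1.98, 1.85 and 2.21, to 4.22, 4.10 and 4.40 (adjusted p = 0.0157).

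**Figure D5:**
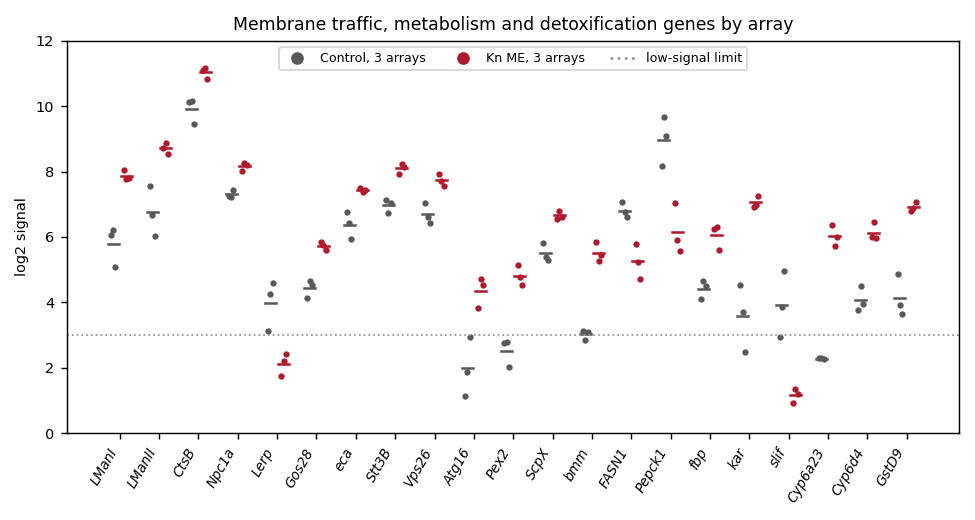
Log2 signal (y axis) of genes of the lysosome, secretory pathway, endosome, peroxisome, lipid and sugar metabolism, transport and detoxification (x axis) on each of the 3 Control and 3 Kn ME arrays, with bars at the group means and a dotted line at the low-signal limit of 3. Cyp6a23, Pex2 and Atg16 start below the limit in Control, and Lerp and slif end below it in Kn ME.

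In signalling pathways calls were few. E(spl)mbeta-HLH, a direct target of Notch, read 4.11, 3.77 and 3.62 in Control and 5.61, 5.61 and 5.59 in Kn ME, a stable rise of 1.77 ± 0.16 (adjusted p = 0.00191). kuz, the protease that cleaves Notch, rose by 0.73 ± 0.15 (adjusted p = 0.0335), and these were the 2 calls in 19 Notch pathway genes. dlp, a glypican that shapes Wnt and Hedgehog signals, was bright and fell by 2.14 ± 0.31 (adjusted p = 0.00889), from 8.36, 7.98 and 7.77 to 6.07, 5.33 and 6.29. Notum, which inactivates Wnt ligands, fell by 0.86 ± 0.19 (adjusted p = 0.0363), from 3.17, 3.38 and 3.65 to low signal at 2.83, 2.46 and 2.32, and these were the 2 calls in 12 Wnt and Hedgehog genes. Pvr, the PDGF/VEGF-type receptor that blood cells use for survival, rose by 1.73 ± 0.35 (adjusted p = 0.0295), from 7.71, 7.08 and 6.08 to 8.67, 8.75 and 8.65, and sty, the receptor tyrosine kinase inhibitor Sprouty, rose by 0.82 ± 0.13 (adjusted p = 0.012), from 6.76, 6.54 and 6.67 to 7.40, 7.43 and 7.59. The list of receptor tyrosine kinase signalling held 30 genes, and its remaining call, Egfr, was at low signal in both groups. Stat92E, the transcription factor of the JAK/STAT pathway, was the only call of 11 and rose by 1.08 ± 0.19 (adjusted p = 0.0166), from 7.59, 8.05 and 8.13 to 8.80, 9.13 and 9.08. With the 6 arrays alone only E(spl)mbeta-HLH and dlp passed among these.

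In the BMP and activin list, 19 genes, babo, the activin type I receptor, and gbb, a BMP ligand, rose by 0.79 ± 0.16 and 0.66 ± 0.15 (adjusted p = 0.0309 and 0.0451), and daw, an activin-family ligand, fell by 1.61 ± 0.38 to low signal (adjusted p = 0.0468). Among 26 ecdysone response genes the nuclear receptor gene Hr39 fell from 6.85, 5.79 and 6.38 to 3.34, 3.27 and 4.77, by 2.55 ± 0.42 (adjusted p = 0.0143), and ImpL2, an insulin-binding protein, fell by 1.05 ± 0.18 (adjusted p = 0.0166), while Cth, cystathionine γ-lyase, rose by 1.17 ± 0.27 (adjusted p = 0.0454). puc, the phosphatase that is both target and inhibitor of the JNK pathway, rose by 1.48 ± 0.33 (adjusted p = 0.0419) and Bruce, an inhibitor of apoptosis, fell by 1.05 ± 0.25 (adjusted p = 0.0492), the only calls in 26 cell death genes. None of the genes named in the BMP, ecdysone and cell death lists passed with the 6 arrays alone.

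The general machinery of gene expression gave almost no calls. None of 42 cytosolic ribosomal protein genes, 39 ribosome biogenesis genes, 63 translation factors and tRNA synthetases, 34 chromatin genes or 19 heat shock and chaperone genes passed limma's threshold. At an unadjusted p under 0.05 they held 1, 5, 6, 5 and 3 genes in that order, beside 2781 of all 11982 named genes. Hsp26, a small heat shock protein, came nearest among the last, at 10.12, 10.11 and 10.33 in Control and 9.64, 9.28 and 8.81 in Kn ME (adjusted p = 0.0535). One gene rose in each of the lists of mitochondrial ribosomal proteins (mRpS17, of 69), the respiratory chain (ATPsynB, of 72), the proteasome (Uch-L5, of 41) and splicing (Hel25E, of 36), all lost with the 6 arrays alone. Their differences were 1.42, 0.75, 0.55 and 1.01. Some medians near 0 turned sign with the scaling: the cytosolic ribosomal list went from 0.09 to -0.01, and the translation list from 0.02 to -0.10, after quantile normalization. Others were higher and stayed positive. Ribosome biogenesis went from 0.33 to 0.29, mitochondrial ribosomal proteins from 0.45 to 0.27, splicing from 0.44 to 0.25 and chromatin from 0.34 to 0.12. In the cell cycle list, 43 genes with 3 rises, CycB, the mitotic cyclin, and dup, the replication licensing factor, rose from low signal, 2.68, 1.58 and 2.25 and 2.72, 1.05 and 1.48 in Control, to 4.46, 3.54 and 3.96 and 4.17, 3.44 and 4.20 (adjusted p = 0.0163 and 0.0229), and were lost with the 6 arrays alone.

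Among the largest rises of genes bright in both groups was mthl6, the 1 call in 15 Methuselah-like receptor genes, which read 3.90, 3.81 and 2.08 in Control and 7.36, 7.46 and 7.35 in Kn ME (adjusted p = 0.00378). Nepl20, a neprilysin-like protease, read 5.04, 5.47 and 3.44 against 7.94, 7.87 and 7.37 (adjusted p = 0.0101). The uncharacterized genes CG31431, CG42369, CG33459, CG34437 and CG8046, and HP1D3csd, rose by 2.75 to 3.54; of these 6, CG42369, CG33459, CG34437 and HP1D3csd were stable. Among the largest falls were CG7924 (8.03, 7.34 and 7.92 against 3.06, 4.19 and 3.31, adjusted p = 0.00378) and CG31323 (8.04, 7.02 and 7.81 against 4.12, 3.26 and 3.86, adjusted p = 0.0013). jus, whose loss causes seizures in flies, fell by 3.32 ± 0.33 (adjusted p = 0.0023), from 6.07, 7.03 and 6.21 to 2.68, 3.68 and 2.98. Pu, GTP cyclohydrolase, which supplies the cofactor of dopamine synthesis and eye pigments, fell by 2.88 ± 0.39 (adjusted p = 0.0065), from 8.75, 9.27 and 9.31 to 5.49, 6.34 and 6.87. The other falls of this size were CG8483, CG32694, CG13705, CG15201, rdo and sona, a secreted ADAMTS protease, with differences from -3.28 to -2.81. Obp56d, an odorant-binding protein gene that was bright on every array, fell by 2.51 ± 0.56 (adjusted p = 0.0409), and 43 of the 47 genes of its family were at low signal in both groups, with 0 rises and 2 falls in all. Of these genes CG8046, CG31431, Nepl20, Obp56d, rdo and sona were lost with the 6 arrays alone.

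Where 1 group was at low signal, the size of a difference depends on the background and is less certain. Best1, a bestrophin chloride channel, read 3.87, 3.00 and 2.05 in Control, with replicate 1 well above replicate 3, and 6.94, 6.85 and 7.09 in Kn ME (adjusted p = 0.00213). CG7214 was low on all Control arrays, at 0.99, 1.26 and 1.13, and read 4.47, 5.29 and 5.25 in Kn ME (adjusted p = 0.000518). In the opposite direction the noncoding RNA lncRNA:CR33948 fell from 7.01, 6.55 and 8.03 to 2.83, 4.03 and 1.55, with 1 Kn ME array still above the limit (adjusted p = 0.0131). CG13578, CG7906 and CG14664 fell by 3.71, 3.70 and 3.67 (adjusted p = 0.000315, 0.0214 and 0.00213). Of these 6 genes, all but CG7906 were stable.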

How the data were processed

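The deposited table held log2 signals of 18952 probe sets, which the authors obtained with RMA, per the submitters' processing notes. Their variant of RMA is not given in the sources used here; base 2 is an inference from how far the values range. Signal over background, batches and hybridization dates could not be examined. After 183 control probe sets were left out, 18769 were tested and none was filtered. Of these, 13647 carried 1 gene symbol, 402 several and 4720 none; only the first were named, 13544 of them by current symbols of a gene table (assembly Release 6 plus ISO1 MT).

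A model with a mean per group was fitted to all 9 arrays in limma 3.58.1 (R 4.3.3), with 6 residual and 2.44 prior degrees of freedom, and tested on simulated data. Linear signals were summed only for marker lists. The genes, lists and tests were chosen with earlier results of these data known. The lists were corrected after the files had been opened, and Prosap, which had risen, was removed from the proteasome list after its value was seen. Lists received no set test. Named were up to 6 called members per list (1 where none was called), the 12 largest rises and falls bright in both groups, the 5 largest at low signal in 1 group, and kn, ct, Ten-m, ppk, ppk26, spas, lz, Drsl5, nSyb and elav.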

Additional observations from a re-analysis of the deposited data

How the results depend on the processing

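Of the 992 probe sets past the threshold, 328 passed in the same direction with only the 6 arrays compared, where 337 passed in all (195 rose and 142 fell), and 578 did with array weights, where 589 passed (382 rose and 207 fell). Leaving out 1 array gave 347 to 1609 calls, with 215 to 997 rises and 132 to 612 falls; without Kn ME replicates 1, 2 and 3 there were 409, 347 and 532, and without Control replicate 1 there were 1609. Quantile normalization gave 399 rises and 431 falls. Centring gave 830 and 317 with a shift of 0.109 in the median difference, a moderated prior with trend 536 and 416, and the limit to probe sets with a mean above 3 799 and 318. The cause of these shifts was not tested. Deviations from the group mean correlated at r = 0.0727, 0.0343 and 0.219 between same-numbered Control and Kn ME arrays. Between differently numbered arrays r ran from -0.142 to 0.0618. Deviations from a mean of 3 arrays depend on each other, so these values cannot settle whether the numbers pair the samples. With the replicate block 1078 probe sets passed, 663 up and 415 down. No named gene past the threshold turned its direction in any alternative run. With a low-signal limit of 2 or 4 in place of 3, 640 or 372 of the 779 called genes were bright in both groups, against 489. The planned search of promoters for a motif of the COE family was not run. The number of arrays and the unknown background limit what can be said of dim genes.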
